A study of Homo sapiens with 6 samples.

Results

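The genes described here encode the translation initiation factors (eIFs) and elongation factors (eEFs) of the cytosol, the proteins that place the ribosome on the start codon and move it along the mRNA. They were taken by name, as gene symbols that begin with EIF and a digit from 1 to 6, without the eIF2 kinases (EIF2AK), or with EEF1 or EEF2. The rule found 61 of the 25343 genes in the count table, 52 with EIF names and 9 with EEF names. The samples were A375 cells, an established line from a human malignant melanoma, exposed for 24 h to 50 nM panobinostat, an inhibitor of histone deacetylases, or to an equal volume of PBS as vehicle. RNA from bulk cells was sequenced in 3 libraries per group, all of the parental line.

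Initiation begins when the GTPase eIF2 brings the initiator tRNA to the small ribosomal subunit, which eIF1, eIF1A, eIF3 and eIF5 prepare for scanning, while the eIF4 proteins bind the mRNA cap and unwind the leader. Elongation then cycles between eEF1A, which delivers each aminoacyl-tRNA, and eEF2, which moves the ribosome on to the next codon. The usual brakes are phosphorylation of eIF2, the 4E-binding proteins that hold the cap-binding protein eIF4E until mTORC1 phosphorylates them, and the kinase that inactivates eEF2.

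Library totals were 32293283 to 36201208 counts with panobinostat and 34738362 to 38944399 in vehicle, so that 3 counts in a library equal 0.0774 to 0.0928 CPM, the count scaled to library size. Libraries of a group differed from each other by more than sampling noise and none were identical. The labels do not say whether the replicates were separate cultures, and p-values therefore reflect the spread among these 6 libraries alone, some or all of which may be technical. In bulk RNA, fewer cells of a type and less RNA per cell cannot be told apart. Of the melanocyte lineage markers, SOX10 and MITF were present in every library and lower with panobinostat, PMEL averaged 194 ± 9.46 CPM with panobinostat and 0.628 ± 0.118 CPM in vehicle, MLANA and TYR had 0 counts, and the summed level of the 9 markers was 760 to 834 CPM with panobinostat and 1992 to 2139 CPM in vehicle. Summed fibroblast markers were 75.2 to 78.8 CPM with panobinostat against 13.3 to 14.1 CPM in vehicle. Most of the sum with panobinostat was COL1A1, at a mean of 56.1 CPM (log2 fold change 5.79). Of the 5 fibroblast markers 4 rose and 1 fell. The one that fell, PDGFRA, averaged 5.95 CPM with panobinostat and 10.3 CPM in vehicle, where it was most of the sum. Summed epithelial markers were 294 to 312 CPM with panobinostat against 154 to 160.2 CPM in vehicle, nearly all from KRT18. Leukocyte and endothelial lists summed to at most 6.17 CPM in any library. The part of these markers in the results on translation factors was not tested.

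Translation factor genes moved in both directions and mostly by modest amounts. Of the 61 genes, 57 had a count and 54 passed the filter on low counts and were tested. With edgeR's quasi-likelihood test at a Benjamini-Hochberg adjusted p under 0.05, 14 of the 54 were higher with panobinostat, 23 were lower and 17 did not pass. EEF1DP3, a pseudogene, passed the filter only through the panobinostat libraries and could be called only as higher, and without it 13 of 53 were higher. Of all 15499 genes tested, 82.8% passed, 41.8% as higher and 41.0% as lower, while 68.5% of the translation factors did. A change of at least 2-fold was found for 3 genes that rose, EIF4E3, EEF1A2 and EEF1DP3, with that same limit, and 3 that fell, EIF4G2, EEF1B2 and EIF4EBP1, against 30.6% of all genes that changed that far, 18.9% rising and 11.7% falling. For 39 of the 54, CPM values of the groups were fully separate, against 83.4% of all genes.

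The median log2 fold change, panobinostat over vehicle, was -0.06 over the 54 genes and 0.01 over all genes tested, and the median size of the change without its sign was 0.27 against 0.60. Their counts were high, with a median of 176 CPM against 21.1 CPM over all tested genes, not corrected for transcript length. Among genes at 72.0 CPM or more, the lower quartile of the tested translation factors, 28 of 40 translation factors passed and 4 changed by at least 2-fold. In the 3448 genes at or above that level 86.7% passed and 15.9% changed by at least 2-fold, with a median size of 0.42. The balance of directions depended on the scaling and the filter. Under upper quartile scaling 25 of the 54 were higher and 21 lower, and under RLE or library size scaling 17 were higher and 23 lower. With genes filtered at 5 CPM in 3 libraries 22 of 52 were higher and 22 lower, and with no filter 13 of 57 were higher and 27 lower. Of the 37 genes that passed, 31 were tested in all 14 alternative settings and kept their call in each. EEF1DP3, which could be called only as higher, was called so in the 13 that tested it. The other 5 are named with their values.

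**Figure D1:**
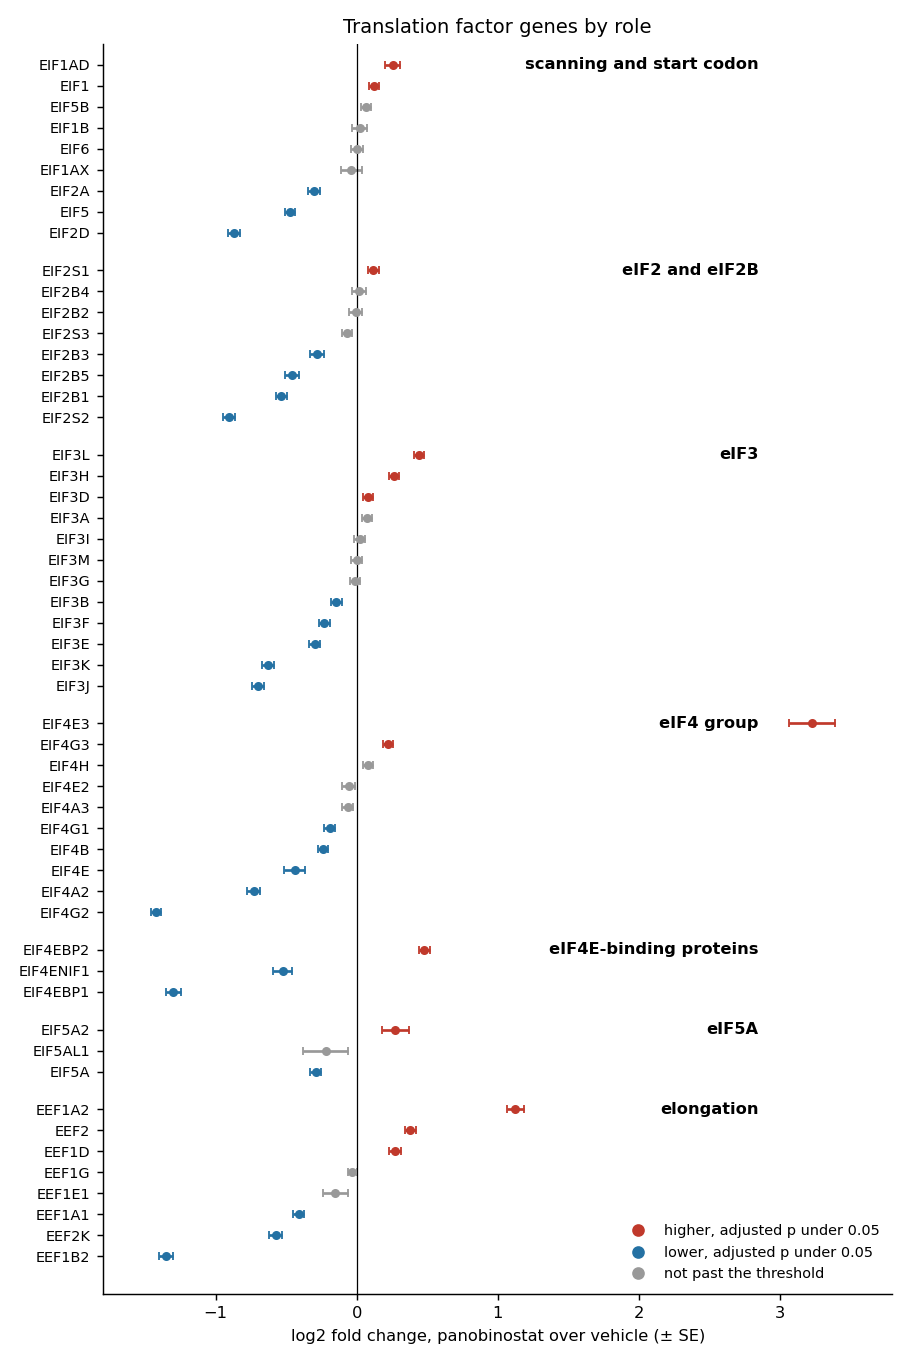
Log2 fold change of each tested translation factor gene, panobinostat over vehicle, with its standard error, grouped by role (x axis, log2 units; 3 libraries per group). Colours mark edgeR calls at an adjusted p under 0.05. EEF1DP3, which had 1 count in the vehicle libraries together, is not drawn. Most genes lie within 1 log2 unit of zero, and EIF4E3 at 3.23 is the farthest from it.

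The elongation factor genes moved in both directions, and 77.8% of them passed. Of all genes tested 82.8% passed, 41.8% as higher and 41.0% as lower. Of 9 genes, 4 were called as higher (EEF1A2, EEF2, EEF1D and EEF1DP3, for which the filter allowed no other call), 3 fell (EEF1B2, EEF1A1 and EEF2K) and 2 did not pass.

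EEF1A1 encodes the widely expressed eEF1A. Its level was 2783, 2750.0 and 2944 CPM in the panobinostat libraries, against 3692, 3654 and 3934 CPM in the vehicle libraries. All 3 panobinostat libraries lay below all 3 vehicle libraries, a fall to 2826 ± 104 CPM against 3760.0 ± 152 CPM in vehicle (SD, n = 3 each; log2 fold change -0.41 ± 0.04, edgeR adjusted p = 2.32e-08). EEF1A2 encodes the isoform normally found in muscle, heart and neurons. It had 106, 98.0 and 108 CPM in the panobinostat libraries, against 49.8, 50.4 and 42.7 CPM in the vehicle libraries. Every panobinostat library was above every vehicle library, and EEF1A2 rose 2.18-fold (log2 fold change 1.13 ± 0.06, edgeR adjusted p = 4.75e-11). No 50-base stretch of the EEF1A2 transcripts occurs in the EEF1A1 transcripts of GENCODE release 29. The count of EEF1A2 was 0.0382, 0.0356 and 0.0365 of that of EEF1A1 in the panobinostat libraries, against 0.0135, 0.0138 and 0.0109 in the vehicle libraries, with no overlap. Counts are not corrected for transcript length here, so these ratios compare groups and not the amounts of the isoforms.

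The exchange factors that reload eEF1A with GTP went opposite ways. EEF1B2, which encodes the alpha subunit of the exchange complex eEF1B, had 109, 106 and 121 CPM in the panobinostat libraries, against 278, 279 and 301 CPM in the vehicle libraries. All panobinostat libraries were below all vehicle libraries, and EEF1B2 was 2.56-fold lower with panobinostat (log2 fold change -1.35 ± 0.05, edgeR adjusted p = 1.51e-13). Of its exon bases 16.4% are shared with same-strand genes, among them SNORA41. EEF1D, the delta subunit with the same exchange activity, had 237, 237 and 245 CPM in the panobinostat libraries, against 208, 201 and 187 CPM in the vehicle libraries. The groups did not overlap and EEF1D rose (log2 fold change 0.27 ± 0.04, edgeR adjusted p = 1.24e-05), with 34.0% of its exon bases opposite other annotated genes. EEF1G, the gamma subunit that holds the complex together, had 1022, 995 and 1062 CPM in the panobinostat libraries, against 1064, 1043 and 1037 CPM in the vehicle libraries. Its libraries overlapped between groups and the change did not pass (log2 fold change -0.03 ± 0.03, edgeR adjusted p = 0.432), though 99.9% of its exon bases are also annotated to a same-strand gene, AP002990.1, so its count is uncertain.

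EEF2, the translocase, had 4518, 4386 and 4702 CPM in the panobinostat libraries, against 3586, 3546 and 3316 CPM in the vehicle libraries. All panobinostat libraries were above all vehicle libraries, and EEF2 rose 1.30-fold to 4535 ± 159 CPM, against 3483 ± 146 CPM in vehicle (SD, n = 3 each; log2 fold change 0.38 ± 0.04, edgeR adjusted p = 6.72e-08). EEF2K, the calcium-dependent kinase that phosphorylates and inhibits eEF2, had 70.3, 65.3 and 68.5 CPM in the panobinostat libraries, against 100.2, 104 and 99.9 CPM in the vehicle libraries. It fell, with no overlap between the groups (log2 fold change -0.58 ± 0.04, edgeR adjusted p = 1.61e-09). EEF1E1, a scaffold protein of the multi-tRNA synthetase complex that carries an elongation factor name, had 11.3, 10.7 and 9.07 CPM in the panobinostat libraries, against 10.8, 11.1 and 12.6 CPM in the vehicle libraries. The groups overlapped and the change did not pass (log2 fold change -0.15 ± 0.09, edgeR adjusted p = 0.126).

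EEF1DP3, an EEF1D pseudogene, had 48 counts over the panobinostat libraries and 1 count over the vehicle libraries, a ratio per library size of 51.1 with a 95% interval of 8.74 to 2059 that covers counting error only. In GENCODE release 29 all of its exon bases lie within exons of FRY on the same strand. FRY itself averaged 18.6 ± 1.10 CPM with panobinostat and 3.31 ± 0.471 CPM in vehicle (SD, n = 3 each; log2 fold change 2.50 ± 0.10, edgeR adjusted p = 1.48e-13). The part of FRY reads in the EEF1DP3 count was not tested.

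**Figure D2:**
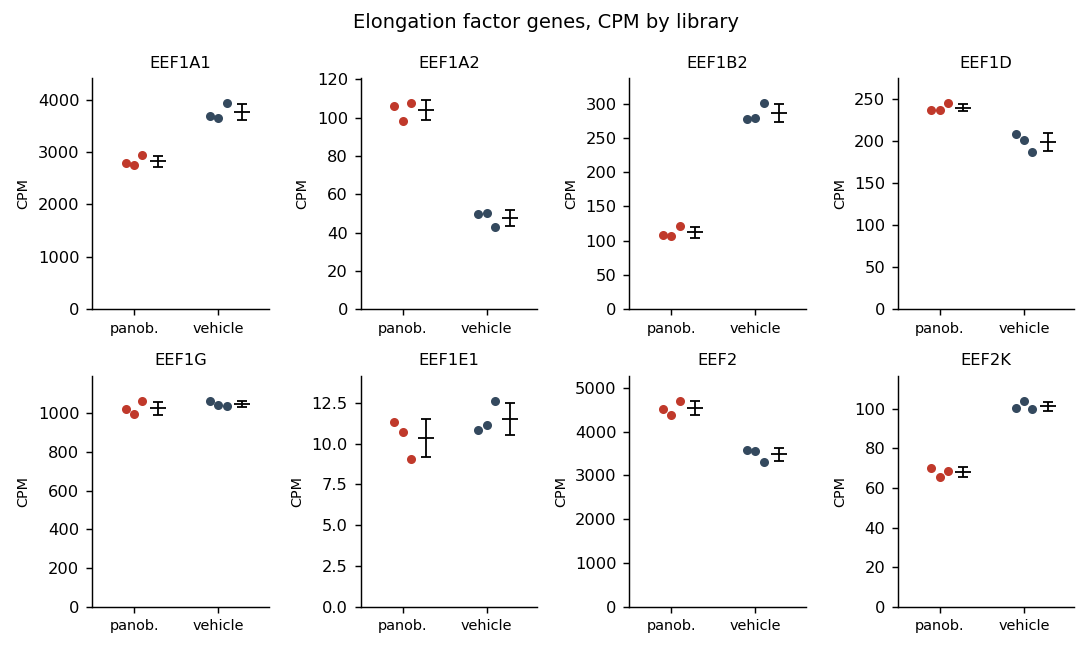
CPM of elongation factor genes in each library (y axis, linear from 0; points are libraries, panobinostat left of vehicle; bars are the mean and SD, n = 3). EEF1A1, EEF1B2 and EEF2K were lower and EEF1A2, EEF1D and EEF2 higher in all 3 panobinostat libraries than in all 3 vehicle libraries.

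Many mRNAs of elongation factors and of some initiation factors belong to the 5′ terminal oligopyrimidine (TOP) class, which begins with a C followed by an unbroken run of pyrimidines and whose translation mTORC1 controls, partly through LARP1. The annotated starts of RefSeq transcripts in GRCh38.p14 were therefore read for a C followed by at least 4 bases that are each C or T. Of 60 genes looked up, 48 had a promoter entry, with 64 entries in all. The run was present at 18.75% of these entries, in 12 genes, against 4.07% of the 35116 entries in the table. The windows printed here run from 60 bases before to 20 bases after the start, 5′ to 3′ on the gene's strand, for 6 genes with such a start, among them the most changed ones, and for EIF4EBP2, which rose and has no such start. Capitals mark the run that begins at the start site.
EEF1A1: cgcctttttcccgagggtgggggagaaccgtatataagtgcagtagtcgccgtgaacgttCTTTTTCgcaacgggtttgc
EEF1B2: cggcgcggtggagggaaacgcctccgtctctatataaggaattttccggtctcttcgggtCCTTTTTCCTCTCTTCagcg
EEF2: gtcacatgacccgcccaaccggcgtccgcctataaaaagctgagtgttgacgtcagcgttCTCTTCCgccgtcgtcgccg
EIF4A2: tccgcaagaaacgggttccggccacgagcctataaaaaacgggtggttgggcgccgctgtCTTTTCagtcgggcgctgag
EIF2D: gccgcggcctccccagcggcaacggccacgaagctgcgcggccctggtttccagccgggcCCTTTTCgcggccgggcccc
EIF3K: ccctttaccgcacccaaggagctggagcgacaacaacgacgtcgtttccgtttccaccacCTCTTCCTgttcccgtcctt
EIF4EBP2: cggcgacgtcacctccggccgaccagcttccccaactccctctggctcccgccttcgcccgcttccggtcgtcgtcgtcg

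In GRCh38.p14 these windows are chr6:73521013-73521092 on the minus strand for EEF1A1, chr2:206159835-206159914 on the plus strand for EEF1B2 and chr19:3985444-3985523 on the minus strand for EEF2. They are chr3:186783517-186783596 on the plus strand for EIF4A2, chr1:206612446-206612525 on the minus strand for EIF2D, chr19:38619128-38619207 on the plus strand for EIF3K and chr10:70404085-70404164 on the plus strand for EIF4EBP2. EEF1B2 has another annotated start that lacks the run.

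Of the 12 genes whose annotated start has the run, 2 rose (EEF2 and EIF3D), 8 fell (EEF1A1, EEF1B2, EIF2A, EIF2D, EIF3F, EIF3K, EIF4A2 and EIF4B) and 2 did not pass (EIF2S3 and EIF3M). Their log2 fold changes ran from -1.35 to 0.38, with a median of -0.27. The 32 other tested genes with a promoter entry divided into 7 higher, 12 lower and 13 not past, with a median of -0.05. Of all genes tested 82.8% passed, 41.8% as higher and 41.0% as lower. Calls of genes outside the set that have such a start were not counted, and a link between the run and the direction was not tested. Whether the starts used in A375 cells are the annotated ones was not measured.

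Other short motifs were counted on both strands of the 300-base RefSeq window, which runs from 250 bases before to 50 after the start. The E-box CACGTG was in 18.75% of the entries of translation factor genes against 7.26% of all entries, and the GC box GGGCGG in 70.3% against 44.95%. CCAAT was in 37.5% against 34.6%, and TATAAA in 4.69% against 11.5%. The cyclic AMP response element TGACGTCA was found in the window of EEF2 alone among these genes, and in 1.85% of all entries. TGATGNAA, the core of sites bound by ATF4, was in 1.56% against 3.62%. None of these motifs contains another. These are matches of letters, not measured binding sites.

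The cap-binding group held the largest fall and the largest rise among the genes with at least 5 CPM in a group. Of the 12 genes placed in the eIF4 group, 10 were tested, and 2 rose (EIF4E3 and EIF4G3), 5 fell (EIF4G2, EIF4A2, EIF4E, EIF4B and EIF4G1) and 3 did not pass (EIF4H, EIF4E2 and EIF4A3). The median log2 fold change was -0.13. Of the 10 tested 70% passed, against 82.8% of all genes tested, 41.8% as higher and 41.0% as lower.

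EIF4G2, also known as DAP5, resembles the scaffold eIF4G but lacks its eIF4E-binding part and serves initiation that does not use eIF4E. It had 339, 342 and 341 CPM in the panobinostat libraries, against 893, 923 and 928 CPM in the vehicle libraries. The libraries of each group lay close together and far from the other group, and EIF4G2 was 2.68-fold lower with panobinostat, the largest fall of all tested translation factors (log2 fold change -1.42 ± 0.03, edgeR adjusted p = 2.88e-16). The scaffolds that do bind eIF4E changed less. EIF4G1 averaged 467 ± 12.1 CPM with panobinostat and 533 ± 17.9 CPM in vehicle (SD, n = 3 each; log2 fold change -0.19 ± 0.04, edgeR adjusted p = 1.31e-04), a call lost with upper quartile scaling (log2 fold change -0.07). EIF4G3 averaged 304 ± 6.93 CPM with panobinostat and 261 ± 5.86 CPM in vehicle (log2 fold change 0.22 ± 0.04, edgeR adjusted p = 2.33e-05). EIF4G2 had 0.734, 0.746 and 0.710 times the count of EIF4G1 in the panobinostat libraries, against 1.63, 1.71 and 1.81 times in the vehicle libraries.

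EIF4E, the cap-binding protein itself, averaged 22.2 ± 1.33 CPM with panobinostat and 30.1 ± 3.09 CPM in vehicle (SD, n = 3 each; log2 fold change -0.44 ± 0.07, edgeR adjusted p = 3.78e-05). EIF4E3, a family member that contacts the cap in an atypical way, had 7.38, 8.83 and 6.47 CPM in the panobinostat libraries, against 0.671, 1.01 and 0.752 CPM in the vehicle libraries. Every panobinostat library was above every vehicle library, and EIF4E3 rose 9.38-fold (log2 fold change 3.23 ± 0.17, edgeR adjusted p = 9.57e-12). EIF4E2, which competes for caps and takes part in repression, did not pass (log2 fold change -0.06 ± 0.05, edgeR adjusted p = 0.264). The testis and oocyte-restricted EIF4E1B had 1 to 3 counts in the panobinostat libraries and 0 counts in the vehicle libraries, and was not tested.

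EIF4A2, a DEAD-box helicase of the eIF4F complex, had 175, 171 and 169 CPM in the panobinostat libraries, against 272, 272 and 309 CPM in the vehicle libraries. It fell without overlap between groups (log2 fold change -0.73 ± 0.05, edgeR adjusted p = 2.40e-10). EIF4B, which stimulates the helicase and was among the 5 genes of the set with the highest CPM, which is not corrected for length, had 768, 760.2 and 789 CPM in the panobinostat libraries, against 893, 905 and 937 CPM in the vehicle libraries. It fell by a smaller amount, again without overlap (log2 fold change -0.24 ± 0.03, edgeR adjusted p = 5.54e-06), and 11.9% of its exon bases lie opposite another annotated gene. EIF4H, a related cofactor, and EIF4A3, the helicase of the exon junction complex, had log2 fold changes of 0.08 and -0.06 and did not pass. EIF4H passed in 5 of the 14 alternative settings. EIF4A1, usually the main helicase of the complex, is listed at 0 in every library. In GENCODE release 29, 48.6% of its exon bases are shared with same-strand genes, among them the readthrough gene SENP3-EIF4A1, which had 0 to 7 counts in a library. The listing at 0 is given as found and was not used in any comparison.

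The 4E-binding proteins separated. EIF4EBP1 had 53.4, 54.0 and 57.8 CPM in the panobinostat libraries, against 145, 137 and 125 CPM in the vehicle libraries. All panobinostat libraries were below all vehicle libraries, and EIF4EBP1 was 2.46-fold lower with panobinostat (log2 fold change -1.30 ± 0.05, edgeR adjusted p = 5.97e-13). EIF4EBP2, a close relative with the same eIF4E-binding motif, had 194, 189.7 and 193 CPM in the panobinostat libraries, against 137, 142 and 135 CPM in the vehicle libraries. It rose 1.39-fold with no overlap (log2 fold change 0.48 ± 0.04, edgeR adjusted p = 2.24e-09).

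The count of EIF4EBP2 was 3.64, 3.51 and 3.33 times that of EIF4EBP1 in the panobinostat libraries, against 0.945, 1.04 and 1.08 times in the vehicle libraries. EIF4ENIF1, which carries eIF4E into the nucleus and into P-bodies, averaged 13.9 ± 0.445 CPM with panobinostat and 19.96 ± 1.27 CPM in vehicle (SD, n = 3 each; log2 fold change -0.53 ± 0.07, edgeR adjusted p = 1.60e-06). EIF4EBP3 had 1 count in each panobinostat library and 2 to 6 counts in the vehicle libraries and was not tested, and 73.4% of its exon bases are shared with the readthrough gene ANKHD1-EIF4EBP3.

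**Figure D3:**
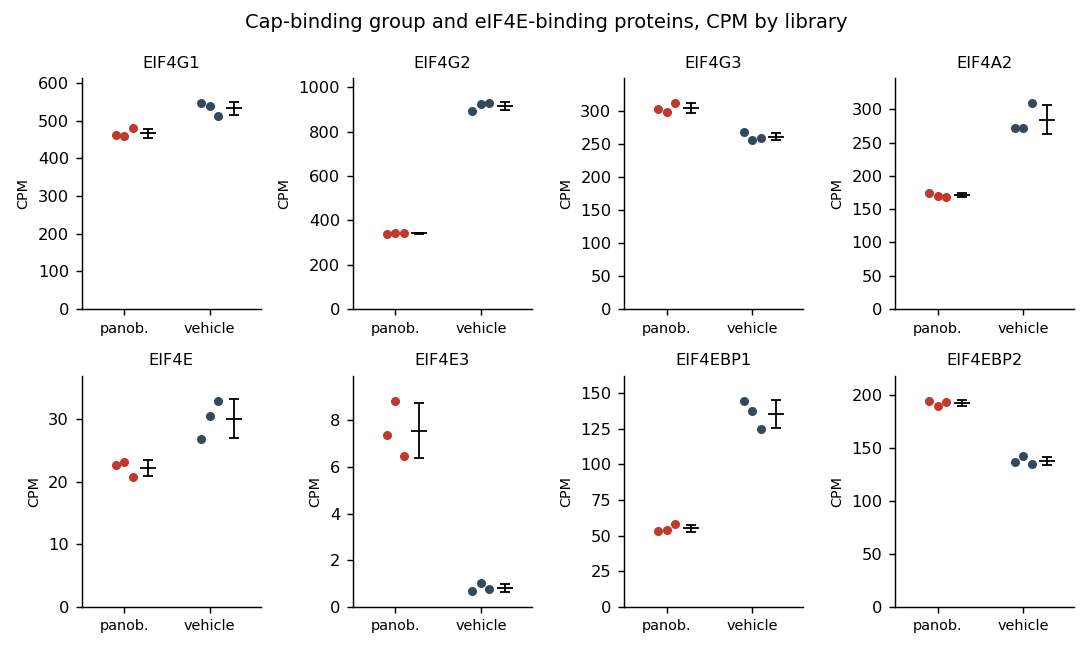
CPM of genes of the cap-binding group and of eIF4E-binding proteins in each library (y axis, linear from 0; points are libraries, panobinostat left of vehicle; bars are the mean and SD, n = 3). The groups are separate in every panel shown, with EIF4E3, EIF4G3 and EIF4EBP2 higher with panobinostat and the others lower. EIF4E2 and EIF4A3, whose groups overlapped, are not drawn. Of all genes tested 83.4% had separate groups.

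Ratios between related genes within a library do not depend on scaling. Of 10 pairs chosen, 8 had both genes tested, and in all 8 the panobinostat and vehicle libraries did not overlap. Of single genes 83.4% did not overlap, and the share among ratios of other gene pairs was not computed. The mean log2 ratio was higher with panobinostat by 3.64 for EIF4E3 over EIF4E, by 1.78 for EIF4EBP2 over EIF4EBP1 and by 1.54 for EEF1A2 over EEF1A1. It was higher by 0.56 for EIF5A2 over EIF5A, by 0.41 for EIF4G3 over EIF4G1 and by 0.38 for EIF4E2 over EIF4E. The difference, panobinostat minus vehicle, was -1.23 for EIF4G2 over EIF4G1 and -0.10 for EIF1B over EIF1. Each pair had a two-sided exact permutation p of 0.1, which is the smallest that 3 libraries against 3 can give, and 0.1 after adjustment over the 8 pairs, so no pair could pass 0.05.

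**Figure D4:**
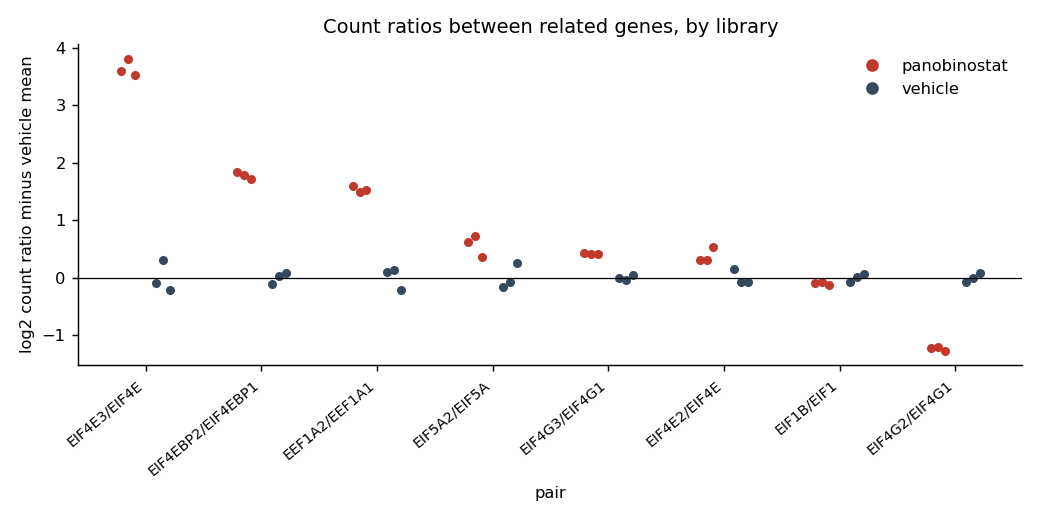
Log2 ratio of counts of related genes in each library, minus the vehicle mean of that pair (points; panobinostat beside vehicle; 0.5 added to each count). The 2 groups are separate for each of the 8 pairs, from EIF4E3 over EIF4E with a difference of 3.64 to EIF4G2 over EIF4G1 with -1.23.

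The genes for subunits of eIF2 and of its exchange factor eIF2B moved in both directions, and 62.5% passed. Of all genes tested 82.8% passed, 41.8% as higher and 41.0% as lower. Of the 8 eIF2 and eIF2B genes, 1 rose, 4 fell and 3 did not pass, with a median log2 fold change of -0.18. EIF2S2, the beta subunit of eIF2, had 101, 100.4 and 106 CPM in the panobinostat libraries, against 190.1, 188 and 198 CPM in the vehicle libraries. The groups did not overlap and EIF2S2 fell (log2 fold change -0.91 ± 0.04, edgeR adjusted p = 9.03e-13). EIF2S1, the alpha subunit whose phosphorylation by stress kinases slows initiation, averaged 178 ± 0.991 CPM with panobinostat and 164 ± 5.05 CPM in vehicle (SD, n = 3 each; log2 fold change 0.12 ± 0.04, edgeR adjusted p = 0.00811), a call lost with no filter on low counts (log2 fold change 0.074), without vehicle replicate 1 (0.085) and without vehicle replicate 2 (0.088). EIF2S3, the gamma subunit that binds GTP and the initiator tRNA, averaged 625 ± 3.29 CPM with panobinostat and 656 ± 21.4 CPM in vehicle and did not pass (log2 fold change -0.07 ± 0.03, edgeR adjusted p = 0.0776).

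Of the 5 subunits of eIF2B, which reloads eIF2 with GTP, none rose and 3 fell, so that 60% passed, against 82.8% of all genes. EIF2B1, the alpha subunit that senses phosphorylated eIF2, averaged 86.3 ± 0.0964 CPM with panobinostat and 125 ± 0.905 CPM in vehicle (SD, n = 3 each; log2 fold change -0.53 ± 0.04, edgeR adjusted p = 6.93e-10). EIF2B5, the catalytic epsilon subunit, averaged 37.1 ± 0.354 CPM with panobinostat and 50.9 ± 0.734 CPM in vehicle (log2 fold change -0.46 ± 0.05, edgeR adjusted p = 9.37e-08), and EIF2B3, the gamma subunit, averaged 32.1 ± 0.766 CPM with panobinostat and 39.01 ± 0.885 CPM in vehicle (log2 fold change -0.28 ± 0.05, edgeR adjusted p = 7.48e-05). The groups did not overlap for these 3 genes, as for 83.4% of all genes tested. Of the exon bases of EIF2B1, 15.55% lie opposite other annotated genes. EIF2B2 and EIF2B4, the beta and delta subunits, overlapped between groups and did not pass.

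The multi-subunit factor eIF3, which binds the small ribosomal subunit and links it to eIF4G, also had genes that moved in each direction. Of its tested genes 66.7% passed, against 82.8% of all genes tested, 41.8% as higher and 41.0% as lower. Of 15 genes 12 were tested, and 3 rose (EIF3L, EIF3H and EIF3D), 5 fell (EIF3J, EIF3K, EIF3E, EIF3F and EIF3B) and 4 did not pass (EIF3A, EIF3I, EIF3G and EIF3M), with a median log2 fold change of -0.01. The genes of eIF3 together took 0.477, 0.476 and 0.494% of the counts in the panobinostat libraries, against 0.469, 0.463 and 0.472% in the vehicle libraries. On TMM-scaled library sizes these shares were 0.475, 0.471 and 0.494% with panobinostat, against 0.469, 0.466 and 0.476% in vehicle, and the groups overlapped.

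EIF3K and EIF3L encode neighbouring subunits that the nematode Caenorhabditis elegans can do without, and they went opposite ways. EIF3L had 883, 872 and 928 CPM in the panobinostat libraries, against 664, 665 and 644 CPM in the vehicle libraries. It rose with no overlap (log2 fold change 0.44 ± 0.04, edgeR adjusted p = 3.14e-09), and 41.1% of its exon bases are shared with a same-strand gene, AL022311.1. EIF3K had 134, 132 and 145 CPM in the panobinostat libraries, against 216, 209 and 211 CPM in the vehicle libraries. It fell with no overlap (log2 fold change -0.63 ± 0.04, edgeR adjusted p = 1.84e-10). EIF3J, a loosely attached subunit that acts at the mRNA channel of the ribosome, had 96.9, 96.9 and 94.7 CPM in the panobinostat libraries, against 151, 153 and 165 CPM in the vehicle libraries. Its fall was the largest in eIF3 (log2 fold change -0.70 ± 0.04, edgeR adjusted p = 7.16e-11).

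EIF3H, a subunit of the octamer core, had 500.5, 499 and 519.6 CPM in the panobinostat libraries, against 413, 418 and 431 CPM in the vehicle libraries. It rose with no overlap between groups (log2 fold change 0.27 ± 0.04, edgeR adjusted p = 1.83e-06). EIF3A, the largest scaffold subunit and also among those 5, had 855, 853 and 886 CPM in the panobinostat libraries, against 817, 812 and 839 CPM in the vehicle libraries. The groups did not overlap but the difference did not pass (log2 fold change 0.07 ± 0.03, edgeR adjusted p = 0.0568), and it passed in 7 of 14 alternative settings. EIF3E and EIF3F fell, with log2 fold changes of -0.30 ± 0.04 and -0.23 ± 0.04.

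EIF3D, which can bind the cap of selected mRNAs, passed narrowly as higher (log2 fold change 0.08 ± 0.03, edgeR adjusted p = 0.0374) and was lost in 8 of 14 settings. EIF3B, a core scaffold, passed as lower (log2 fold change -0.14 ± 0.04, edgeR adjusted p = 0.00270) and was lost under upper quartile scaling (-0.02) and under a 5 CPM filter (-0.05). EIF3C and its near-identical copy EIF3CL are listed at 0 in every library. Of the 50-base stretches of EIF3CL transcripts 97.3% also occur in EIF3C transcripts, and 42.3% of those of EIF3C occur in EIF3CL. The pseudogene EIF3IP1 had 1 to 4 counts in the panobinostat libraries and 1 to 5 in the vehicle libraries and was not tested.

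**Figure D5:**
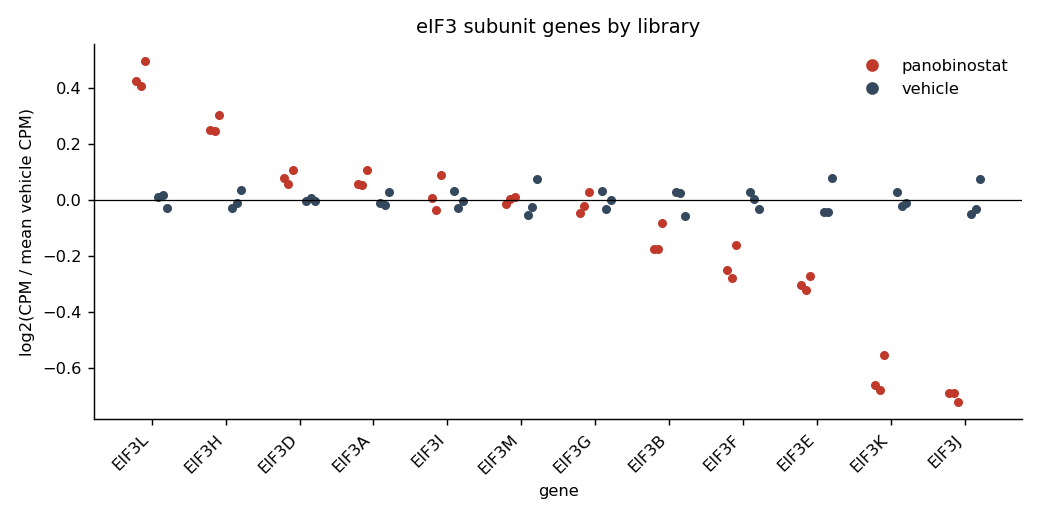
Log2 of the CPM of each tested eIF3 subunit gene over its mean vehicle CPM (points are libraries, panobinostat left of vehicle, n = 3 each). The line at 0 marks the mean vehicle CPM of each gene. EIF3L and EIF3H were higher and EIF3J and EIF3K lower in every panobinostat library than in every vehicle library.

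Among the 10 genes of scanning, start-codon choice and subunit joining, 9 were tested, and 2 rose (EIF1 and EIF1AD), 3 fell (EIF2D, EIF5 and EIF2A) and 4 did not pass, with a median log2 fold change near zero. Of the 9 tested 55.6% passed, against 82.8% of all genes tested, 41.8% as higher and 41.0% as lower. The Y-linked EIF1AY is counted among the 10 and is not described. EIF2D, which can place tRNA on the ribosome without GTP and acts in recycling, had 49.5, 49.2 and 51.5 CPM in the panobinostat libraries, against 90.9, 90.3 and 93.1 CPM in the vehicle libraries. Every panobinostat library was below every vehicle library (log2 fold change -0.87 ± 0.04, edgeR adjusted p = 5.43e-12). EIF5, which makes eIF2 hydrolyse its GTP at the start codon, averaged 224 ± 3.17 CPM with panobinostat and 311 ± 5.87 CPM in vehicle and fell (SD, n = 3 each; log2 fold change -0.47 ± 0.03, edgeR adjusted p = 1.08e-09).

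EIF2A, an initiation factor of its own that is distinct from the eIF2 alpha subunit, averaged 241 ± 2.59 CPM with panobinostat and 297 ± 19.3 CPM in vehicle and also fell (log2 fold change -0.30 ± 0.04, edgeR adjusted p = 5.23e-06). EIF1, the guardian of start-codon fidelity, averaged 595 ± 10.1 CPM with panobinostat and 546 ± 3.66 CPM in vehicle and rose (log2 fold change 0.12 ± 0.03, edgeR adjusted p = 0.00246), as did EIF1AD (log2 fold change 0.25 ± 0.05, edgeR adjusted p = 2.09e-04). EIF1B, EIF1AX, EIF5B, the GTPase that joins the subunits, and EIF6, which keeps them apart, overlapped between groups and did not pass.

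EIF5A, known for its modified lysine hypusine, helps the ribosome through stalls such as runs of proline. It averaged 586 ± 14.7 CPM with panobinostat and 717 ± 26.8 CPM in vehicle (SD, n = 3 each) and fell with no overlap (log2 fold change -0.29 ± 0.04, edgeR adjusted p = 1.34e-06). EIF5A2, its tissue-restricted relative, had 14.0, 15.3 and 12.3 CPM in the panobinostat libraries, against 10.2, 11.2 and 13.0 CPM in the vehicle libraries. The groups overlapped, and the rise (log2 fold change 0.27 ± 0.10, edgeR adjusted p = 0.0153) was lost without panobinostat replicate 2 (log2 fold change 0.19), without vehicle replicate 1 (0.18) and without vehicle replicate 2 (0.24). EIF5AL1 did not pass (log2 fold change -0.22 ± 0.16, edgeR adjusted p = 0.2003), and 11.6% of its 50-base stretches also occur in EIF5A, so reads may be divided between them.

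Summed over the set, translation factor genes took 1.99, 1.98 and 2.05% of all counts in the panobinostat libraries, against 2.11, 2.09 and 2.11% in the vehicle libraries. The EIF names took 1.10, 1.10 and 1.13% with panobinostat, against 1.21, 1.21 and 1.22% in vehicle, lower in all 3 panobinostat libraries. The EEF names took 0.890, 0.874 and 0.926% with panobinostat, against 0.898, 0.883 and 0.885% in vehicle, and these overlapped. EEF1A1 and EEF2 together took 0.733, 0.721 and 0.765% with panobinostat, against 0.727, 0.715 and 0.718% in vehicle, which also overlapped. Without EEF2, the mean EEF share was lower with panobinostat by 0.101 percentage points. Without both EEF1A1 and EEF2 the difference, panobinostat minus vehicle, was -0.0115 percentage points.

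Genes that act on these factors or beside them were counted from 8 lists, all of whose genes were tested. For each list the share over all tested genes is 82.8% passing, with 41.8% higher and 41.0% lower. Of the 4 eIF2 kinases and 2 regulatory subunits of the eIF2 phosphatase, 1 rose and 5 fell, with a median log2 fold change of -0.34. EIF2AK2, the kinase PKR that double-stranded RNA activates, averaged 60.2 ± 1.54 CPM with panobinostat and 117 ± 3.996 CPM in vehicle (SD, n = 3 each; log2 fold change -0.96 ± 0.04, edgeR adjusted p = 1.52e-12). EIF2AK4, the amino acid sensor GCN2, averaged 149 CPM with panobinostat and 218 CPM in vehicle (log2 fold change -0.55 ± 0.04, edgeR adjusted p = 3.00e-10). PPP1R15B, the constitutive phosphatase subunit, was the gene that rose, at 270.0 ± 10.4 CPM with panobinostat and 173 ± 4.44 CPM in vehicle (log2 fold change 0.64 ± 0.04, edgeR adjusted p = 8.25e-11).

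Of 14 genes of mTORC1 and cap signalling, 4 rose and 8 fell (median -0.25). PDCD4, which binds and inhibits eIF4A and has 28.1% of its exon bases opposite other genes, averaged 60.9 ± 1.73 CPM with panobinostat and 179.5 ± 8.18 CPM in vehicle (SD, n = 3 each; log2 fold change -1.56 ± 0.04, edgeR adjusted p = 2.67e-15). AKT1S1, the mTORC1 inhibitor PRAS40, averaged 70.9 CPM with panobinostat and 112 CPM in vehicle (log2 fold change -0.66 ± 0.05, edgeR adjusted p = 7.04e-10). The kinases that phosphorylate eIF4E both rose, MKNK1 to 46.4 ± 1.39 CPM against 27.2 ± 0.994 CPM in vehicle (log2 fold change 0.77 ± 0.05, edgeR adjusted p = 4.13e-10) and MKNK2 by 0.57 ± 0.05 on the log2 scale.

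Of 7 poly(A)-binding proteins and partners, 1 rose and 4 fell (median -0.45). PAIP2B, which displaces the poly(A)-binding protein from the tail, rose to 17.9 ± 1.24 CPM against 3.69 ± 0.376 CPM in vehicle (log2 fold change 2.28 ± 0.09, edgeR adjusted p = 2.57e-13). PAIP1, which promotes initiation through the same protein, averaged 40.4 CPM with panobinostat and 71.4 CPM in vehicle (log2 fold change -0.82 ± 0.05, edgeR adjusted p = 3.50e-11), and PABPC4 fell by 0.53 on the log2 scale. Of 5 initiation factors without an EIF name 1 rose and 4 fell, but only 1 was lower under upper quartile scaling, under the 5 CPM filter or without panobinostat replicate 1, and the rise of ABCF1 was lost in 4 of 14 settings. DENR, which works with MCTS1 in reinitiation, averaged 119 CPM with panobinostat and 151 CPM in vehicle (log2 fold change -0.34 ± 0.04, edgeR adjusted p = 7.12e-07).

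Of 6 genes of termination, recycling and rescue, 4 rose and 2 fell (median 0.16). PELO, which rescues stalled ribosomes, averaged 182 ± 2.90 CPM with panobinostat and 46.8 ± 2.64 CPM in vehicle (SD, n = 3 each; log2 fold change 1.96 ± 0.05, edgeR adjusted p = 2.32e-16). In GENCODE release 29, 10.9% of PELO exon bases are shared with ITGA1 on the same strand, and ITGA1 averaged 587 ± 13.9 CPM with panobinostat and 231 ± 7.19 CPM in vehicle, so the PELO count is uncertain. HBS1L, the GTPase partner of PELO, rose to 77.0 ± 1.35 CPM against 54.3 ± 2.86 CPM in vehicle (log2 fold change 0.50 ± 0.05, edgeR adjusted p = 3.10e-08). ABCE1, which splits ribosomes for recycling, averaged 115 ± 8.98 CPM with panobinostat and 207 ± 19.1 CPM in vehicle (log2 fold change -0.85 ± 0.07, edgeR adjusted p = 5.20e-07).

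Of 9 enzymes that make hypusine on eIF5A or diphthamide on eEF2, 2 rose and 7 fell (median -0.39), with the rise of DPH5 lost in 6 of 14 settings. DPH3 was among those that rose, at 60.1 CPM with panobinostat and 34.9 CPM in vehicle (log2 fold change 0.79 ± 0.06, edgeR adjusted p = 3.95e-09), and DPH6, which completes diphthamide, fell, at 12.8 CPM with panobinostat and 22.5 CPM in vehicle (log2 fold change -0.81 ± 0.07, edgeR adjusted p = 1.29e-08). Of 9 mitochondrial translation factors 6 rose and 2 fell (median 0.26), the fall of MTRF1 being lost under upper quartile scaling and the 5 CPM filter, with the initiation factor MTIF3 at 39.1 CPM with panobinostat and 23.4 CPM in vehicle (log2 fold change 0.74 ± 0.05, edgeR adjusted p = 9.21e-10) and MTIF2 at 74.2 CPM with panobinostat and 95.7 CPM in vehicle (log2 fold change -0.37 ± 0.05, edgeR adjusted p = 2.16e-06). Both selenocysteine factors rose, EEFSEC by 0.42 ± 0.07 and SECISBP2 by 0.17 ± 0.04 on the log2 scale.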

How the data were processed

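The authors deposited whole-number read counts per gene symbol, not normalized, in 1 table. Its name gives STAR as the aligner. The version, the strand setting, the library kit and the build and annotation behind the counts were not given in the sources used here. Reads of overlapping genes on either strand therefore cannot be told apart. Groups came from the dose label, and columns were matched to samples by title. Per the series' design text, RNA came from a column kit with DNase treatment. Spike-in rows were left out.

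Genes were filtered with filterByExpr, scaled by TMM and tested in edgeR 4.0.16 (limma 3.58.1, R 4.3.3) with glmQLFit (robust) and glmQLFTest on group alone, with Benjamini-Hochberg adjustment over all 15499 genes. CPM use TMM-scaled library sizes. The SE of a log2 fold change is its size divided by the root of F. The alternatives changed the scaling (RLE, upper quartile, library size), the filter (none, or a minimum of 5 CPM in 3 libraries) and the test (DESeq2 1.42.0, limma-voom, a replicate block), or left out each library in turn. The steps were tested on simulated counts. Exon overlaps and 50-base stretches come from GENCODE release 29 and promoter windows from RefSeq in GRCh38.p14, and neither is known to be the authors' annotation. Plots used matplotlib 3.10.9 in Python 3.11.15.

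Full values are given for the 8 largest rises and 8 largest falls among genes that passed at a mean of 5 CPM or more in a group, the 5 genes with the highest mean CPM and all EEF genes. From each related list up to 2 genes per direction were named by adjusted p. The genes, lists and tests were chosen with earlier results of these data known. The listed paralog pairs were compared as log2 ratios with 0.5 added to each count. Shares of counts carry no p. Intervals and floors cover counting error only.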

Additional observations from a re-analysis of the deposited data

How the results depend on the processing

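Of the 37 translation factor genes that passed, 31 were tested in all 14 alternative settings and kept their call and direction in each. EIF3D, EIF2S1, EIF5A2, EIF3B and EIF4G1 were lost in at least 1. EEF1DP3 was called higher in the 13 settings that tested it. With 1 count over the vehicle libraries no other call was possible, so this says nothing about stability. The number higher was 25 under upper quartile scaling and 22 under the 5 CPM filter, against 14 in the reported test, and their share of the calls was 54.3% and 50.0% against 37.8%. Upper quartile scaling moved the median log2 fold change of all genes to 0.13, against 0.01, and the share of all calls that were higher to 57.3%, against 50.5%. Under the 5 CPM filter 49.4% of all calls were higher, but over 11492 genes tested in place of 15499, so these shares cover different genes. Under that filter log2 fold changes inside and outside the set moved up by similar amounts. The median of the set went from -0.0598 to 0.0347, and EIF3B went from -0.143 to -0.0485. Outside the set ABCF1 went from 0.11 to 0.21 and DENR from -0.34 to -0.24. DHX29 went from -0.128 to -0.0339 and MTRF1 from -0.251 to -0.157. Upper quartile scaling also moved them up, DHX29 to -0.00845 and MTRF1 to -0.132. With no filter 13 were higher and 27 lower. Among the genes that did not pass, signs turned with upper quartile scaling for EEF1G (0.090), EIF2B2 (0.11), EIF3G (0.11) and EIF3M (0.12), and with the 5 CPM filter for EIF3G (0.081) and EIF3M (0.094). These signs turned along with the shift shared by the genes named above, so they are not read as changes of single genes. The cause of the shift was not tested.

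Leaving out 1 library in turn gave 11 to 14 higher and 23 to 24 lower. The difference in the share of counts of the EIF names, panobinostat minus vehicle, was -0.107 percentage points, -0.116 to -0.102 leaving out 1 library in turn, and -0.0230 with upper quartile scaling. For the EEF names it was 0.00803, from -0.00694 to 0.0195 leaving out 1 library, and 0.0729 with upper quartile scaling. It was -0.101 without EEF2 and -0.0115 without both EEF1A1 and EEF2.

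With the replicate block 13 genes were higher and 23 lower, and EIF3D was lost. The samples share only a number: libraries with the same number had deviations from their group means that correlated at -0.14, -0.11 and -0.27 over genes. Libraries with different numbers correlated at -0.08 to 0.19. Deviations from a mean of 3 libraries depend on each other, so these values cannot decide whether the samples were paired. Where an adjusted p is close to 0.05, 3 libraries per group limit the precision, and genes under about 5 CPM, such as EIF4E3 in vehicle, rest on few counts.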
